A study of Homo sapiens with 11 samples.

Results

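Messenger RNA of 8 collagen chain genes was followed in A375 melanoma xenografts: COL1A1, COL1A2, COL3A1, COL5A1 and COL5A2, which encode chains of the fibrillar collagens I, III and V, and COL6A1, COL6A2 and COL6A3, which encode the chains of type VI collagen. They are 8 of the 20046 genes with a probe on the human array. All probes annotated to them were taken, 12 of the 30113 probes with 1 gene symbol, 6 for fibrillar and 6 for type VI chains. COL1A2 and COL6A3 had several probes, numbered 1 and 2 here, and COL6A2 had probes 1, 2 and 3. All 12 probes passed the filter, a detection p-value below 0.05 on at least 1 array, which 20638 probes passed. Each probe is given on its own, since different probes of a gene bind its transcript with different strength and their levels cannot be set against one another.

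Fibrillar collagens are trimers that are secreted as precursors, trimmed outside the cell, laid into fibrils and cross-linked. Type I is the main collagen of skin and of tumour stroma, type III accompanies it in extensible tissue, and type V sits in the fibril core and limits fibril width. Type VI collagen is built from 1 chain of each kind, assembles into beaded microfilaments close to cells, and binds cell surface receptors. In tumours fibroblasts make most of this matrix, but melanoma cells also transcribe collagen genes.

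The tumours were raised in the flank of female CD1 athymic mice from A375, an established human melanoma line with the BRAF V600E mutation, 1 line in all. All mice were 6 weeks old at implantation. Tumours were collected at day 12 of treatment with vehicle (1% methylcellulose; 3 arrays), PLX4720, an inhibitor of mutant BRAF (60 mg/kg daily by gavage; 3 arrays), bevacizumab, an antibody that neutralises human VEGF (10 mg/kg by intraperitoneal injection, 3 doses a week; 3 arrays), or both drugs at these doses (COMBO; 2 arrays). The comparisons asked how human transcripts responded to each drug and to their combination. Athymic mice lack T cells and supply the tumour's stroma, so that fibroblasts, vessels and leukocytes are mouse while the array carries human probes. Whether the signal of a collagen probe came from human transcripts or from mouse transcripts that bound it was not tested.

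Levels are log2 intensities after background correction and quantile normalization, and a probe is called detected on an array where its detection p-value is below 0.05. Between 19767 and 21952 probes were detected per array. The array PLX4720 1 stood apart: 136 of the tested probes lay over 3 log2 units below every other array there, against 0 or 1 probe on each of the other 10 arrays. They included 1 of the 3 probes of ACTB, the cytoskeletal actin (9.94, against 14.74 or more elsewhere), and all 3 of PSMC4, a proteasome subunit. NEB, which encodes the muscle protein nebulin, was at 7.88 there against 5.71 or less elsewhere, and CKMT2, a muscle creatine kinase, at 8.06 against 5.90 or less. Of the 2 tested probes of ATP2A1, a calcium pump of muscle, 1 was at 11.42 against 7.87 or less and the other at 4.68, within its range elsewhere. The ACTB, PSMC4, NEB, CKMT2 and ATP2A1 probes were chosen after their values were seen, and their part in the collagen values was not tested. Within arms, arrays correlated at 0.986 or more for vehicle, at 0.985 for COMBO, at 0.955 or more for bevacizumab and at 0.917 or more for PLX4720, and PLX4720 3 and bevacizumab 1 lay apart on the second principal component (-88.4 and -52.9). Results are therefore also given without such arrays where the call of a collagen probe changes.

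PLX4720 was first compared with vehicle. The chains of collagens I and III were higher in PLX4720-treated tumours, while type V and type VI chains gave no call. Of the 12 collagen probes, 4 rose and none fell, against 1.26% of all tested probes called higher (limma with Benjamini-Hochberg adjustment over all tested probes, adjusted p below 0.05). The 4 were COL1A1, both COL1A2 probes and COL3A1, from 3 of the 5 fibrillar genes. The median difference was 1.31 on the log2 scale over the 12 probes, 2.53 over the 6 fibrillar and 0.27 over the 6 type VI probes, beside 0.03 over all tested probes. The arrays did not overlap between the arms, with PLX4720 higher, for 7 of the 12 probes, against 10.3% of all tested probes.

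**Figure D1:**
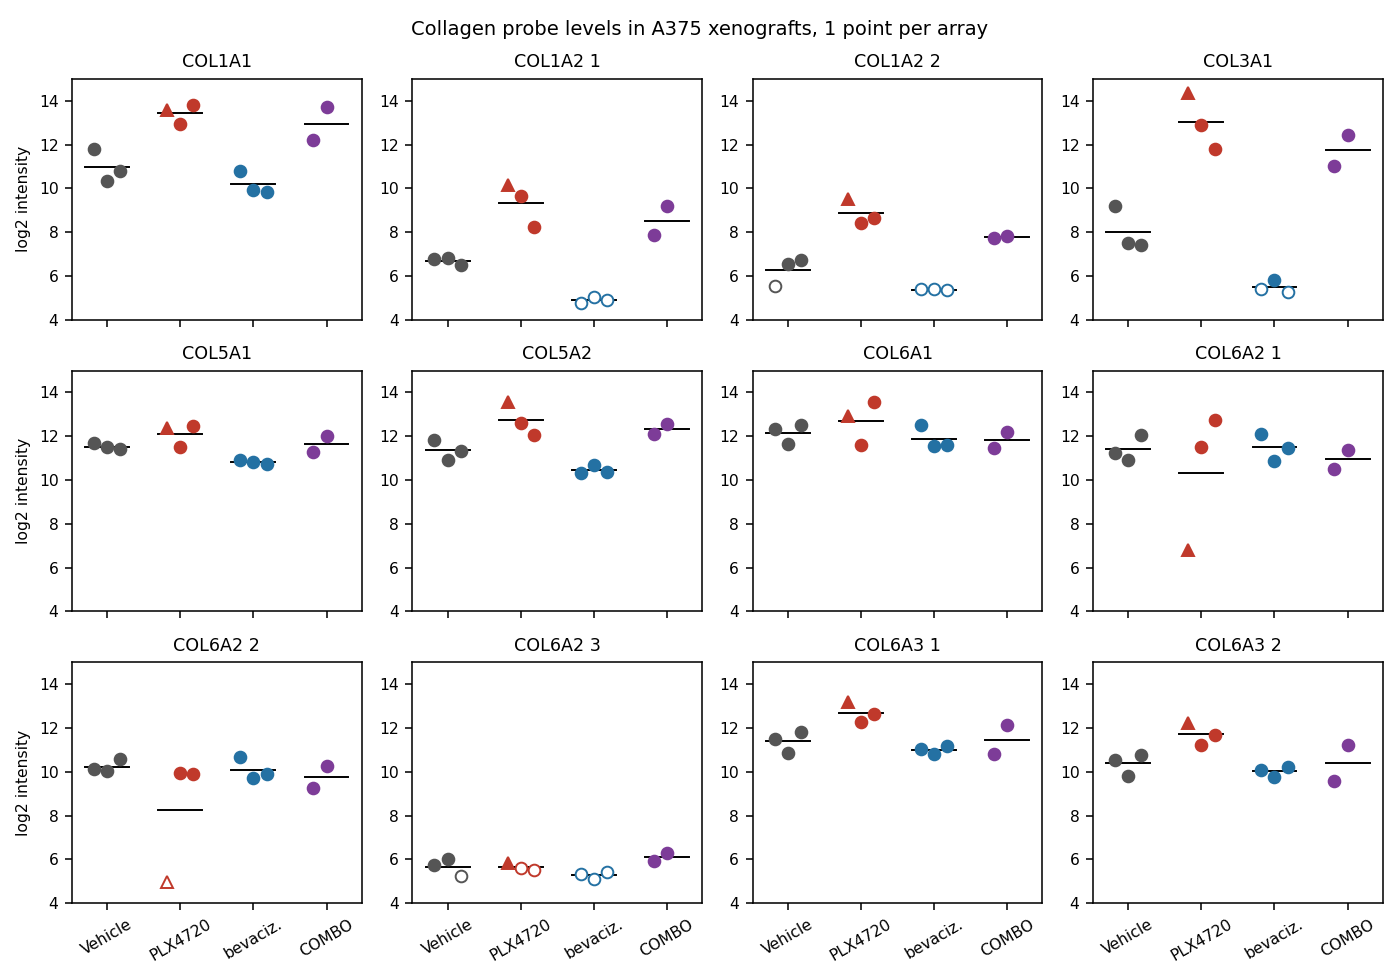
Log2 intensity (vertical axis) of the 12 collagen probes in each arm (horizontal axis; bevaciz. is bevacizumab), 1 point per array, with the arm's mean as a bar. Filled points were detected, open points were not, and the triangle marks the array PLX4720 1. COL3A1 spans 5.27 to 14.37 over the 11 arrays, while COL6A1 spans 11.44 to 13.58.

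COL3A1, the single chain of type III collagen, had levels of 9.20, 7.49 and 7.39 on the vehicle arrays and of 14.37, 12.90 and 11.82 on the PLX4720 arrays. Every PLX4720 array lay above every vehicle array, and PLX4720 1 was the highest of all. The difference was 5.01 on the log2 scale (SE 0.65, n = 3 against 3), a 32.1-fold higher level (limma, adjusted p = 0.00481), the fifth largest rise among all 20638 probes. Without PLX4720 1 it was 4.32 (adjusted p = 0.0116), on the authors' cubic spline normalized values 4.21 (adjusted p = 0.00744) and without background correction 4.40 (adjusted p = 0.00953).

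COL1A1, which supplies most of the type I trimer, had levels of 11.79, 10.34 and 10.79 under vehicle and of 13.56, 12.95 and 13.82 under PLX4720. The arms did not overlap, and the spread among vehicle arrays was wider than among PLX4720 arrays. The level was 5.54-fold higher (log2 2.47 ± 0.48 SE, n = 3 against 3, limma adjusted p = 0.0284). The call was lost without Vehicle 2 (adjusted p = 0.132), without Vehicle 3 (adjusted p = 0.134) and without PLX4720 1 (adjusted p = 0.0766), with log2 differences of 2.16, 2.38 and 2.43. It was also lost with array weights (2.36, adjusted p = 0.117) and with only the vehicle and PLX4720 arrays in the fit (2.43, adjusted p = 0.0778).

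COL1A2 encodes the other chain of type I collagen. Its probe 1 had levels of 6.78, 6.82 and 6.50 under vehicle and of 10.16, 9.63 and 8.26 under PLX4720. Its probe 2 had levels of 5.53, 6.57 and 6.71 under vehicle, the first not detected, and of 9.53, 8.42 and 8.65 under PLX4720. Both probes separated the arms, and both were highest on PLX4720 1. The level rose 6.27-fold for probe 1 (log2 2.65 ± 0.46 SE, limma adjusted p = 0.0167) and 6.04-fold for probe 2 (log2 2.59 ± 0.35 SE, adjusted p = 0.00603; n = 3 against 3). On the cubic spline values and without background correction the log2 differences were smaller, 1.76 and 1.77 for probe 1 and 1.58 and 1.53 for probe 2, with all 4 still called. With any 1 of the 3 vehicle arrays left out, probe 1 was no longer called (adjusted p = 0.0602, 0.0811 and 0.0944), while probe 2 was. With only the vehicle and PLX4720 arrays in the fit neither was (adjusted p = 0.0796 and 0.0665).

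Type V chains differed less. COL5A2, which with COL5A1 makes the common type V trimer, had levels of 11.85, 10.94 and 11.31 under vehicle and of 13.57, 12.61 and 12.08 under PLX4720. Its arms did not overlap, but the difference of 1.39 (SE 0.37) missed the threshold (limma adjusted p = 0.0808) and, among the settings run, passed it only without PLX4720 3 or without both PLX4720 3 and bevacizumab 1. COL5A1 had levels of 11.70, 11.49 and 11.40 under vehicle and of 12.39, 11.51 and 12.45 under PLX4720. PLX4720 2 fell inside the vehicle range, and the difference was 0.59 with a 95% confidence interval from -0.06 to 1.24 (adjusted p = 0.354).

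Among type VI chains COL6A3, the longest of the 3 chains, had higher levels with separated arms. Its probe 1 had levels of 11.49, 10.86 and 11.83 under vehicle and of 13.17, 12.29 and 12.62 under PLX4720. Its probe 2 had levels of 10.55, 9.82 and 10.78 under vehicle and of 12.24, 11.21 and 11.68 under PLX4720. Both probes put the 3 PLX4720 arrays above the 3 vehicle arrays. The differences were 1.30 (SE 0.38, limma adjusted p = 0.108) and 1.33 (SE 0.43, adjusted p = 0.145), so neither was called.

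COL6A1, the first chain of type VI collagen, had levels of 12.32, 11.63 and 12.50 under vehicle and of 12.91, 11.61 and 13.58 under PLX4720. The arms overlapped, with PLX4720 2 just below the lowest vehicle array, and the difference was 0.55 (95% confidence interval -0.51 to 1.61, limma adjusted p = 0.614). COL6A2, the second chain, behaved differently on its probes. Probe 1 had levels of 11.26, 10.93 and 12.07 under vehicle and of 6.80, 11.50 and 12.73 under PLX4720. Probe 2 had levels of 10.11, 10.02 and 10.60 under vehicle and of 4.97, 9.93 and 9.89 under PLX4720.

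On both probes 1 array, PLX4720 1, set the low value. It lay 3.70 log2 units below the lowest of the other 10 arrays for probe 1 and 4.27 below for probe 2, where it was not detected. For probe 2 all 3 PLX4720 arrays lay below the vehicle arrays, as 10.4% of all tested probes did. The differences of -1.07 (SE 1.15, limma adjusted p = 0.696) and -1.98 (SE 1.04, adjusted p = 0.383) became 0.70 (adjusted p = 0.596) and -0.33 (adjusted p = 0.757) without that array, which turned the direction of probe 1. Probe 3 was dim everywhere, between 5.10 and 6.29, was detected on 5 of 11 arrays and had PLX4720 1 within that range.

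The other collagen chains were not low on PLX4720 1, which had the highest level of all arrays for COL1A2, COL3A1, COL5A2 and COL6A3. The 10 neighbouring genes of COL6A2 on chromosome 21 were taken among genes with a probe detected on all 11 arrays. A gene whose probes were all undetected on PLX4720 1 could therefore not be among them. Of these 10, 8 were not below all other arrays on PLX4720 1. Among the 8 were COL6A1 (12.91 there, 11.44 to 13.58 on the other arrays) and COL18A1, which encodes a basement membrane collagen (8.83 against 7.73 to 8.72). The other 2 were LINC00205 (6.13 against 6.73 or more) and YBEY (9.46 against 9.67 or more). Probe-wise loss was seen for other genes of collagen biology. Of the 2 CRTAP probes, for a subunit of the collagen prolyl 3-hydroxylase complex, 1 was at 6.24 on PLX4720 1 against 9.51 or more elsewhere, while the other was at 10.10, inside its range elsewhere. COL9A3, a chain of the fibril-associated collagen IX, was at 5.52 there against 9.23 or more. ACTB, ALDOA and RPL8 likewise each had 1 probe over 3 log2 units below all other arrays on this array and 1 or more that were not. A second ALDOA probe was at 4.80 there against 5.40 to 7.33 elsewhere. These 3 genes were chosen after their values were seen. The part of this array-wide pattern in the COL6A2 values was not tested.

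**Figure D2:**
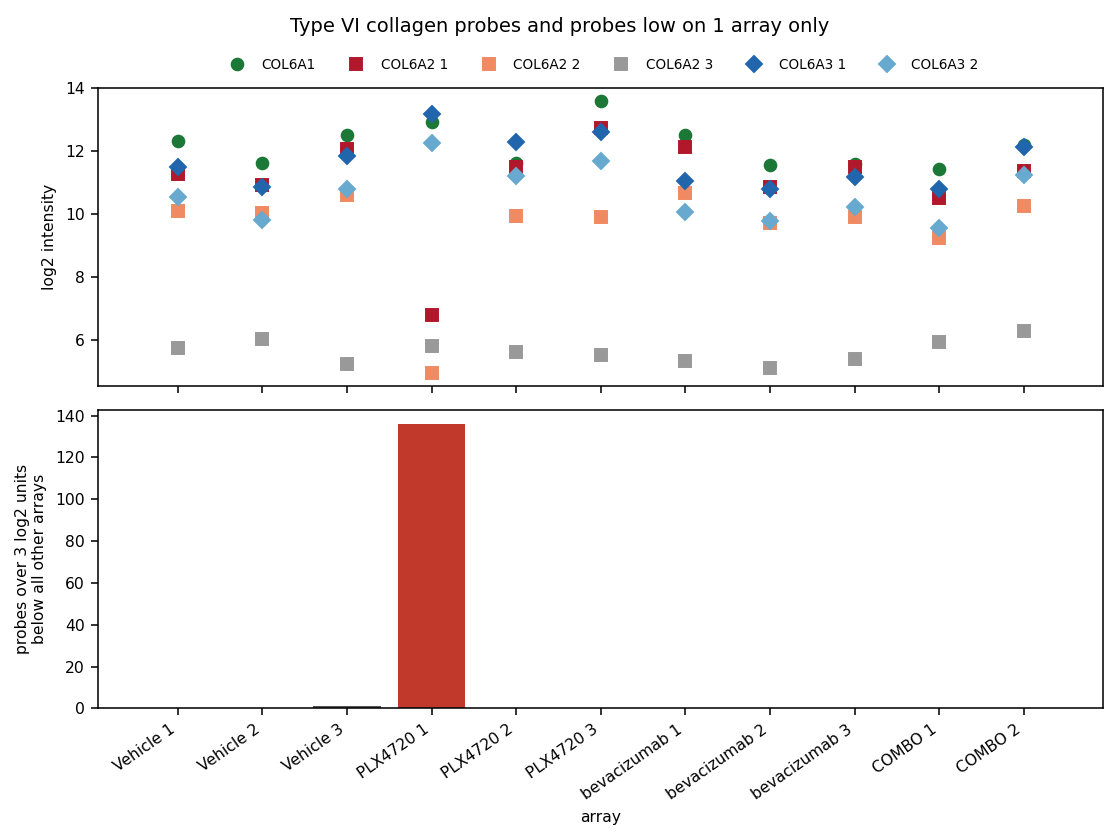
Top, log2 intensity of the 6 type VI collagen probes on each of the 11 arrays. Bottom, the number of tested probes on each array that lie over 3 log2 units below all other arrays. COL6A2 probes 1 and 2 drop on PLX4720 1, the array with 136 such probes, while COL6A1 and COL6A3 do not.

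Promoters of COL6A2 and COL6A3 are shown because these chains of 1 molecule differed on PLX4720 1. RefSeq (GRCh38.p14) gave starts for COL5A1, COL6A2 and COL6A3. The 100 bases before the annotated start are printed 5′ to 3′ on the gene's strand, with each match to the word TATAAA, to the word CCAAT or to the word GGGCGG in capitals (searched on both strands, with no overlap between these words). COL6A2 lies at chr21:46098012-46098111 on the plus strand and COL6A3 at chr2:237414165-237414264 on the minus strand.
COL6A2: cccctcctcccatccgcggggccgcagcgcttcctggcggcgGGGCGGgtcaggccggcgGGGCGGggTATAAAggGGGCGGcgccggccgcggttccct
COL6A3: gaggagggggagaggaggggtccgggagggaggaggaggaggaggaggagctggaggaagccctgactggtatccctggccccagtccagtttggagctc
The COL6A2 stretch held TATAAA 32 bases before the start and GGGCGG at 58, 40 and 24 bases before it, and the COL6A3 stretch held none of the 3 words. In the 250 bases before and 50 after the start, COL5A1 held the reverse complement of GGGCGG and neither of the other words. Of 35116 human promoters of that length, 11.5% held TATAAA, 34.6% held CCAAT and 45% held GGGCGG. A match is a description of the letters only.

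Bevacizumab was then compared with vehicle. Fibrillar chains had lower levels in bevacizumab-treated tumours, but no collagen probe passed the test. None of the 12 was called, as none of all tested probes was (0% called), while 5 of the 12 and 541 of 20638 had an unadjusted limma p below 0.05. Those 5 were all fibrillar, and for 5 of the 12 probes the bevacizumab arrays lay wholly below the vehicle arrays, against 6.53% of all tested probes. The median difference was -0.90 over fibrillar and -0.31 over type VI probes, beside -0.03 over all tested probes.

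COL3A1 had levels of 5.40, 5.82 and 5.27 on the bevacizumab arrays and was detected on 1 of 3, whereas vehicle arrays lay between 7.39 and 9.20. The arms did not overlap, and the difference was -2.53 (95% confidence interval -3.96 to -1.10). It was the lowest of all 20638 probes in this comparison, without passing the adjusted test (limma adjusted p = 0.9999). With other settings the difference ranged from -3.03 to -1.25. COL1A2 probe 1 had levels of 4.75, 5.02 and 4.90 and COL1A2 probe 2 of 5.38, 5.40 and 5.34, and neither was detected on any bevacizumab array. Set against the lowest detected signal of each array, or the probe's own if higher, these were at least 1.92-fold and 1.42-fold lower than under vehicle. Both bounds hold for the main processing. Over the other settings run the log2 differences ranged from -2.61 to -0.79 for probe 1 and from -1.26 to -0.34 for probe 2. COL1A1 (10.81, 9.93 and 9.83) overlapped the vehicle arrays, whereas COL5A1 (10.92, 10.80 and 10.73) and COL5A2 (10.31, 10.70 and 10.38) lay below them.

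Type VI chains overlapped between these arms on every probe. COL6A1 had levels of 12.52, 11.56 and 11.60 under bevacizumab, COL6A2 probe 1 of 12.12, 10.86 and 11.48, and COL6A3 probe 1 of 11.06, 10.80 and 11.17. The intervals of the differences were -1.32 to 0.80, -2.46 to 2.60 and -1.22 to 0.44 on the log2 scale.

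COMBO was compared with vehicle and with PLX4720. Under the combination collagens I and III had higher levels than under vehicle, without a call. None of the 12 probes was called against vehicle (0.0969% of all tested probes were), although 5 of the 12 and 1021 of 20638 had an unadjusted limma p below 0.05. For 5 of the 12 both COMBO arrays lay above the vehicle arrays, against 15.9% of all tested probes. COL3A1 had levels of 11.04 and 12.44 on the COMBO arrays, 13.1-fold above vehicle (log2 3.72 ± 0.73 SE, n = 2 against 3, limma adjusted p = 0.106), and passed the threshold with array weights, without PLX4720 1 or without PLX4720 3. COL1A1 had levels of 12.19 and 13.72, both above the 3 vehicle arrays (log2 difference 1.98, adjusted p = 0.390). COL1A2 had levels of 7.86 and 9.19 on probe 1 and of 7.71 and 7.81 on probe 2, with differences of 1.83 and 1.49. COL5A2, at 12.11 and 12.58, lay above vehicle by 0.98, and COL5A1, at 11.27 and 12.04, overlapped it.

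Type VI chains overlapped vehicle under COMBO on all 6 probes. COL6A1 had levels of 11.44 and 12.20, COL6A2 probe 1 of 10.50 and 11.38, COL6A2 probe 2 of 9.24 and 10.25, COL6A3 probe 1 of 10.80 and 12.13, and COL6A3 probe 2 of 9.57 and 11.23. COMBO 1 was the lower array on each of them. The median difference from vehicle was -0.16 over the type VI probes and 1.66 over the fibrillar probes, beside -0.02 over all tested probes.

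Against PLX4720 alone, COMBO had no called collagen probe (0.00485% of all tested probes were called), and 3 of the 12 had an unadjusted limma p below 0.05, against 1719 of 20638. These were COL1A2 probe 2 and both COL6A3 probes, all with lower levels under COMBO. COL6A3 probe 1 differed by -1.23 (95% confidence interval -2.16 to -0.30, adjusted p = 0.529) and probe 2 by -1.31 (-2.37 to -0.26, adjusted p = 0.542). The COMBO arrays lay below all PLX4720 arrays for 2 of the 12 probes, COL1A2 probe 2 and COL6A3 probe 1, against 10.9% of all tested probes. They lay above them for 1, the dim COL6A2 probe 3, against 9.87%. COL3A1 differed by -1.29 (interval -2.89 to 0.31) and COL1A1 by -0.49 (interval -1.67 to 0.68), so the test did not separate the combination from PLX4720 alone for these chains.

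**Figure D3:**
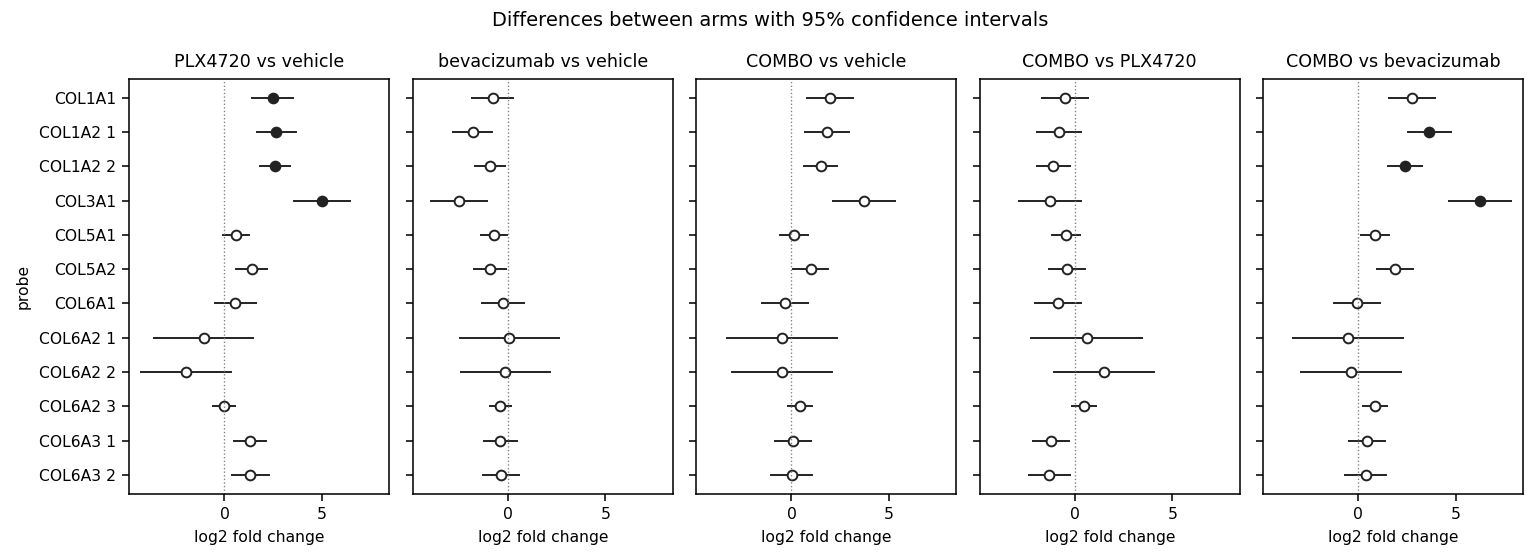
Difference in log2 intensity (horizontal axis) of each of the 12 collagen probes (vertical axis) in 5 comparisons, with 95% confidence intervals as lines. Filled points have an adjusted p below 0.05. Fibrillar probes lie right of 0 in PLX4720 against vehicle and COMBO against bevacizumab, and COL6A2 probes 1 and 2 have the widest intervals.

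COMBO was also compared with bevacizumab. Adding PLX4720 to bevacizumab went with higher fibrillar chains: 3 of the 12 probes rose, both of COL1A2 and COL3A1, against 0.208% of all tested probes called higher. Both COMBO arrays lay above the bevacizumab arrays for 7 of the 12 probes, all 6 fibrillar probes and COL6A2 probe 3, against 14.8% of all tested probes. The median difference was 2.58 over fibrillar and 0.15 over type VI probes, beside 0.01 over all tested probes.

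COL3A1 was 75.8-fold higher (log2 6.24 ± 0.73 SE, n = 2 against 3, limma adjusted p = 0.00843), from bevacizumab arrays of which 1 of 3 detected it. This fold depended on the processing, with log2 differences of 4.36 on the cubic spline values (adjusted p = 0.0232) and 4.39 without background correction (adjusted p = 0.0298). COL1A2 was at least 6.80-fold higher on probe 1 (limma adjusted p = 0.0163) and at least 4.0-fold higher on probe 2 (adjusted p = 0.0321), since no bevacizumab array detected either. These bounds hold for the main processing. On the cubic spline values and without background correction the log2 differences were 1.99 and 1.91 for probe 1 (adjusted p = 0.0768 and 0.132) and 1.22 and 1.08 for probe 2 (adjusted p = 0.10 and 0.164), so that neither was called. COL1A1 was 6.79-fold higher without a call (log2 2.76 ± 0.53 SE, adjusted p = 0.0740), and COL5A2 3.70-fold (adjusted p = 0.124). COL6A1 (-0.07, interval -1.25 to 1.11) and COL6A3 probe 1 (0.45, interval -0.47 to 1.38) had intervals that included 0. Without COMBO 2 no collagen probe was called (COL3A1, adjusted p = 0.142). With any 1 of the 3 bevacizumab arrays left out, COL3A1 alone was called. Without PLX4720 3 the count was 5, and without PLX4720 1 it was 4. Those 2 arrays enter only through what the arms share, such as the normalization and the spread. Without both PLX4720 3 and bevacizumab 1 the count was 2, with 85 of all tested probes called.

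The comparisons with vehicle share its arrays, and all COMBO comparisons share the COMBO arrays. The interaction (COMBO minus PLX4720 minus bevacizumab plus vehicle) gave no call among the 12 collagen probes or among all tested probes (0% called), with 1 of the 12, the dim COL6A2 probe 3, and 1367 of 20638 at an unadjusted limma p below 0.05. It was 0.29 for COL1A1 and 1.24 for COL3A1, with intervals from -1.28 to 1.87 and from -0.91 to 3.39. Across the 4 arms at once, the F test at an adjusted p below 0.1, the limit in the study's methods, called 5 of the 12 collagen probes, against 2.66% of all tested probes. They were COL3A1 (adjusted p = 0.00152), both COL1A2 probes (0.00320 and 0.00305), COL1A1 (0.0174) and COL5A2 (0.0356).

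In arm means COL3A1 was ordered PLX4720 (13.03 ± 1.28 SD, n = 3), COMBO (11.74 ± 0.99, n = 2), vehicle (8.03 ± 1.02, n = 3) and bevacizumab (5.50 ± 0.29, n = 3). PLX4720 and COMBO, neighbours in that order, overlapped. COL1A1 had the same order (13.44, 12.95, 10.97 and 10.19), with PLX4720 overlapping COMBO and vehicle overlapping bevacizumab. COL6A1 was ordered PLX4720, vehicle, bevacizumab and COMBO, between 12.70 and 11.82, and all 4 arms overlapped.

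Over the 11 arrays COL3A1 correlated with COL1A2 probe 1 at r = 0.98, with COL5A2 at 0.98 and with COL1A1 at 0.94, while its correlation with COL6A1 was 0.34. These are descriptions over 11 arrays that share the 4 treatments. After the arm means were removed, COL3A1 still correlated with COL5A2 at 0.95 and with COL1A2 probe 1 at 0.81, but with COL1A2 probe 2 at -0.01. The 2 COL6A3 probes followed each other at 0.995 and COL6A2 probes 1 and 2 at 0.94. COL6A1 and COL6A2 probe 1, chains of 1 molecule, correlated at 0.00, with PLX4720 1 included.

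The probes of other genes most like each of 3 collagen probes were taken by Pearson correlation over the 11 arrays. For COL3A1 they were VCAM1, an adhesion molecule (0.98), LUM, the collagen-binding proteoglycan lumican (0.98), BOC, a cell surface receptor (0.97), NSMCE4A and GLT8D2 (both 0.97). For COL1A1 they were both probes of MGP, matrix Gla protein (0.97 and 0.96), RASSF9 (0.97), BOC (0.97) and NTS, the neurotensin precursor (0.96). For COL6A1 they were SLC35B2, a Golgi nucleotide sugar carrier (0.97), SEMA4G (0.97), PRAG1, HYOU1, a chaperone of the endoplasmic reticulum, and ADCK1 (all 0.96). No gene stood on more than 1 of these lists apart from BOC.

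The genes around these chains were read from lists of other fibrillar and associated collagens, of collagen processing, of collagen receptors and of regulators. Among other collagens 2 of 14 tested probes rose under PLX4720 against vehicle and none fell, beside 1.26% of all tested probes called higher. COL9A2, of the fibril-associated collagen IX, had levels of 8.21, 7.89 and 7.86 under vehicle and of 10.50, 9.51 and 9.96 under PLX4720 (4.01-fold, limma adjusted p = 0.0447). COL11A2, a chain of the fibrillar collagen XI, was not detected under vehicle and was at least 2.25-fold higher (adjusted p = 0.0426).

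Of 34 tested probes of collagen processing genes 4 were called lower, against 1.17% of all tested probes, and 1 higher, against 1.26%. P4HA1 and P4HA2 encode catalytic subunits of prolyl 4-hydroxylase, which makes the hydroxyproline that holds the triple helix together. P4HA1 had levels of 11.16, 11.03 and 11.33 under vehicle and of 10.02, 9.62 and 10.13 under PLX4720, 2.38-fold lower (limma adjusted p = 0.0332). All 3 P4HA2 probes fell, with log2 differences of -1.01, -1.04 and -2.18 (adjusted p = 0.0421, 0.0485 and 0.0384). The probe with -2.18 was not detected on PLX4720 1 (4.66). It was at 6.82 and 5.95 on PLX4720 2 and PLX4720 3, against 7.76 to 8.11 under vehicle. TLL1, a protease that trims fibrillar procollagen, was at least 2.17-fold higher (adjusted p = 0.0346).

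LOX, the lysyl oxidase that cross-links fibrils, had levels of 6.37, 6.44 and 7.12 under vehicle, of 4.94, 6.75 and 5.79 under PLX4720, of 5.49, 7.47 and 6.07 under bevacizumab, and of 4.92 and 5.0 under COMBO. It was not detected on either COMBO array and was at least 1.93-fold lower there than under vehicle, without a call (limma adjusted p = 0.697). None of the 25 tested probes of collagen receptors was called under PLX4720 (limma), against 502 of 20638 tested probes. An unadjusted p below 0.05 was found for 0 of the 25, against 3408 of 20638. Of the 24 regulator probes 1 rose under PLX4720, against 1.26% of all tested probes called higher. It was TGFB3, a transforming growth factor. Its levels were 7.24, 6.91 and 6.46 under vehicle and 9.20, 8.16 and 9.04 under PLX4720 (3.80-fold, limma adjusted p = 0.0319). TGFB1, the best known inducer of collagen genes, was detected on 1 of 11 arrays, Vehicle 1, and has no fold. No probe of these 4 lists was called in the other comparisons by limma, where 0 to 62 of 20638 tested probes were. At most 9 probes of a list had an unadjusted p below 0.05. They were 9 of 34 of collagen processing in COMBO against bevacizumab, where 1454 of 20638 tested probes had one.

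Some markers of fibroblasts were higher in the same comparisons as the fibrillar chains. Of 21 tested fibroblast probes 7 rose under PLX4720 and none fell, against 1.26% of all tested probes called higher. In COMBO against vehicle 1 rose (0.0969% of all tested probes called either way), and in COMBO against bevacizumab 4 rose (0.208% called higher). POSTN, the matrix protein periostin, had levels of 5.98, 4.91 and 6.03 under vehicle and of 8.97, 10.04 and 9.43 under PLX4720 on 1 of its probes, and LUM of 7.17, 6.98 and 5.86 against 10.19, 9.88 and 9.82. They rose 14.3-fold and 9.77-fold (limma adjusted p = 0.00164 and 0.00299). TAGLN, the contractile protein transgelin, rose 4.10-fold (adjusted p = 0.00293). The summed linear level of the list, however, overlapped between the arms, from 44974 to 102110 under PLX4720 and from 74195 to 101003 under vehicle, with DPT and THY1 detected on no array. The value of 44974 was that of PLX4720 1, while PLX4720 2 and PLX4720 3 were at 87096 and 102110. The median over the list's probes was 0.24 to 0.78 above the vehicle mean under PLX4720, 0.25 to 0.43 above it under COMBO and -0.21 to -0.03 from it under bevacizumab.

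Of 10 tested endothelial and pericyte probes 2 rose under PLX4720, against 1.26% of all tested probes called higher. They were RGS5 and MCAM, at 7.06-fold and 2.33-fold (limma adjusted p = 0.0375 and 0.0388). RGS5 was at 9.37, 9.67 and 6.81 on the PLX4720 arrays, against 5.41, 6.08 and 5.90 under vehicle. MCAM is the melanoma cell adhesion molecule, so its place on this list does not make it a vessel signal. The summed level was 4437 to 7137 under PLX4720 and 3521 to 4133 under vehicle. The endothelial genes CDH5, CLDN5, KDR and VWF were detected on no array. The other 9 genes of the list, with the endothelial genes PECAM1 and TEK among them, were detected on some array. Of 16 leukocyte probes 1 rose (AIF1) and 1 fell (CD68), against 1.26% of all tested probes called higher and 1.17% called lower. Their summed level was 4878 to 7590 under PLX4720 and 7784 to 8800 under vehicle, and PTPRC and TYROBP were detected on no array. None of 11 melanocyte probes was called under PLX4720 by limma, against 502 of 20638 tested probes. An unadjusted p below 0.05 was found for 2 of the 11, against 3408 of 20638. The summed level of this list was 12157 to 14141 under PLX4720 and 7739 to 9840 under vehicle. MLANA, TYR, TYRP1 and S100B were detected on no array. The other 7 genes of the list with a probe, MITF, PMEL and SOX10 among them, were detected on some array. In a whole tumour, more cells of a type and more RNA per cell cannot be told apart. Fibroblasts, vessels and leukocytes are mouse in these tumours. Whether their marker probes read human transcripts or mouse transcripts that bound them was not tested. The part of these cell types in the collagen levels was not tested.

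**Figure D4:**
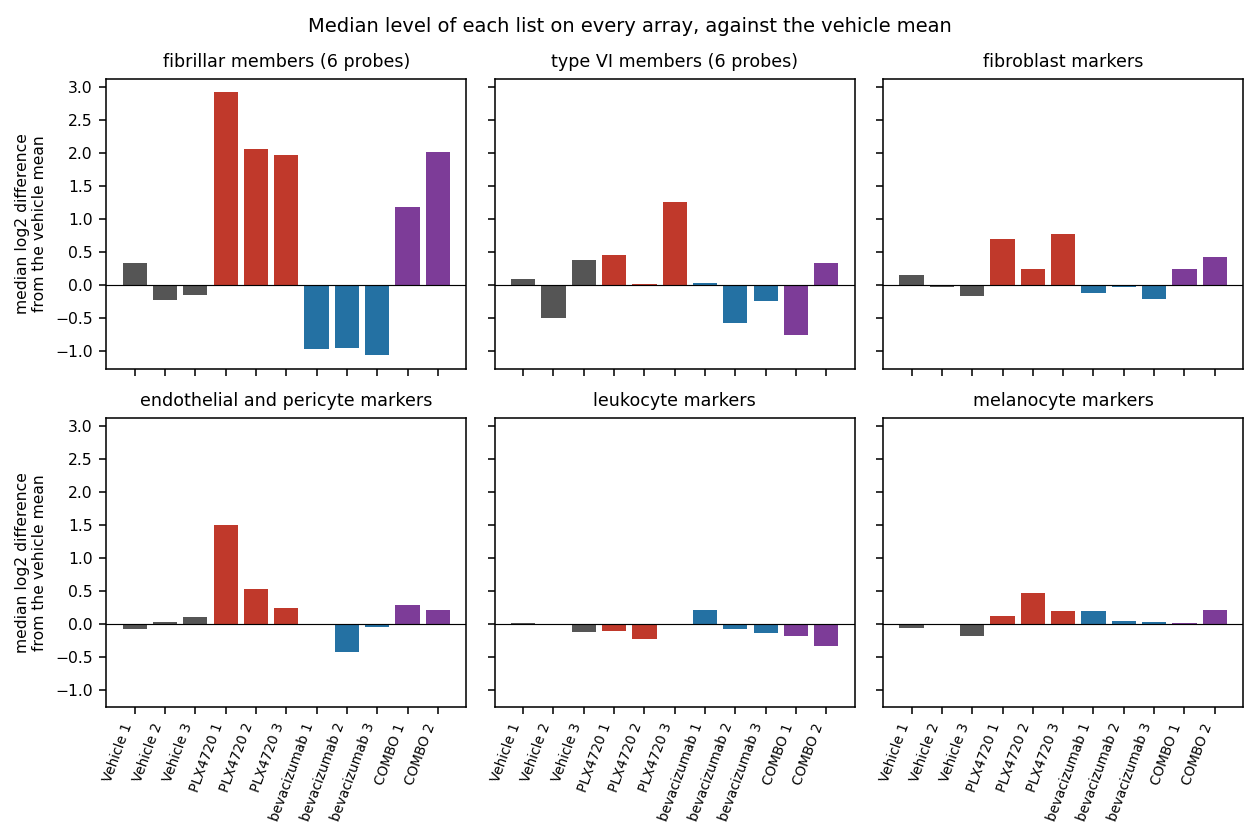
Median log2 difference from the vehicle mean (vertical axis) on each of the 11 arrays (horizontal axis), over the 6 fibrillar probes, the 6 type VI probes and the tested probes of 4 marker lists. The fibrillar median was 1.97 to 2.92 under PLX4720, 1.19 to 2.01 under COMBO and -1.06 to -0.96 under bevacizumab, while the type VI median lay between -0.76 and 1.26 over all arrays.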

How the data were processed

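Labelled RNA of each A375 tumour was hybridised to 1 bead array (Illumina HumanHT-12 v4). The authors exported intensity values and detection p-values with GenomeStudio 2011.01. The deposited table of intensity values is not normalized, and a second deposited table holds their cubic spline normalized intensity. The methods call the replicates biological. Of 47323 probes, the platform annotation gave 30113 a single symbol, 8 more than 1 and 17202 no symbol. No probe coordinates are given, since the sources used here name no build.

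In limma 3.58.1 (R 4.3.3), background was removed by normexp, whose control moments came from the detection p-values, 16 was added as offset, and quantile normalized values were log2-transformed. A fit of the 4 arms on all 11 arrays at probe level gave moderated two-sided tests and 95% confidence intervals, with Benjamini-Hochberg adjustment over 20638 probes. The script was tested on simulated data. Where a group detected a probe on no array, the fold is a bound.

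Alternatives were the cubic spline values, no background correction, median scaling, offsets of 50 and 1, other detection filters, 1 probe per gene, fewer arrays, array weights, a replicate block, and the methods' limits. The members and lists were chosen with earlier results of these data known. Named besides the members were called list probes (at most 4 per contrast, smallest p), LOX, TGFB1, and the 5 probes most like COL1A1, COL3A1 and COL6A1. Figures used matplotlib 3.10.9. Mouse arrays were not analysed here.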

Additional observations from a re-analysis of the deposited data

How the results depend on the processing

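The 4 collagen probes called under PLX4720 against vehicle stayed 4 with the cubic spline values, without background correction, with median scaling, with offsets of 50 and 1 and with the other detection filters. With only the arrays compared the count was 1, COL3A1, while calls among all tested probes fell from 502 to 60. With single arrays left out the collagen count ranged from 2 (without Vehicle 2 or Vehicle 3) to 5 (without PLX4720 3). Those fits called 71, 79 and 910 of all tested probes. COMBO against bevacizumab gave 3 probes, with 62 of all tested probes called. It gave 1 with the cubic spline values, without background correction or with the offset of 50 (46, 42 and 51 of all tested probes), and 6 with array weights (934). With single arrays other than COMBO left out it gave 1 to 5 (13 to 163 of all tested probes). COMBO against vehicle gave 0, but 4 with array weights (479 of all tested probes, against 20). With single arrays other than COMBO left out it gave 0 to 1 (3 to 84 of all tested probes). At the methods' limits, a log2 difference of 1 or more and an unadjusted p below 0.01, the counts were 6 for PLX4720 against vehicle (COL5A2 and COL6A3 probe 1 added), 2 for bevacizumab against vehicle, 4 for COMBO against vehicle and 5 for COMBO against bevacizumab, with 1101, 37, 300 and 455 of all tested probes. The called folds of COL1A2 and COL3A1 were over 1.5 times smaller with the cubic spline values or without background correction. With the replicate block COMBO against bevacizumab gave 1 probe, and COL1A1 under PLX4720 had an adjusted p of 0.0531. Same-numbered arrays deviated from their arm means with correlations of -0.444 to 0.239, so the numbers were not read as pairs. The cause of these shifts was not tested. No called difference changed direction. Probes near background limit the low folds, and 2 or 3 arrays per arm limit the precision.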
